A study of Mus musculus with 6 samples.

Results

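The Eph receptors are the largest family of receptor tyrosine kinases, and 10 of their genes were followed here in mouse hearts: Epha1, Epha2, Epha3, Epha4, Epha5, Epha7, Epha10, Ephb1, Ephb3 and Ephb4. They were taken from a fixed list of names, with every probe set that the array's annotation assigns to that gene alone. This gave 25 probe sets for the 10 genes, among 18193 genes so named on the array. RNA of 6 whole hearts had been measured on Affymetrix Mouse 430.2 arrays, 3 hearts from wild-type mice and 3 from mice labelled EphB4 mutant, all of strain C57B6. Neither the age of the mice nor what kind of mutation they carry is stated in the labels. In the descriptions 4 hearts carry the letters eI (numbers 1 and 2 of each genotype) and 2 carry eM (number 3 of each), and the meaning of the letters is not stated.

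Eph receptors sit in the membrane and bind ephrins on neighbouring cells, so that signals pass both into the cell with the receptor and into the cell with the ephrin. A-class receptors mainly bind ephrins that are tethered by a lipid anchor, and B-class receptors mainly bind ephrins that span the membrane, with Epha4 able to bind both. In the cardiovascular system Ephb4 marks the endothelium of veins and its partner ephrin-B2, made from Efnb2, that of arteries. Epha3 is known from the cushion tissue that forms the heart valves.

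Promoter sequences are shown for Ephb4, the gene named by the mutation, and for Epha3 and Epha4. The latter had probe sets with a limma adjusted p under 0.05 between eM and eI hearts, in opposite directions. Those calls were lost when some single hearts were left out. The sequences are from RefSeq, build GRCm38.p6, and run 5′ to 3′ on the gene's strand from 250 bases before to 50 bases after the annotated start. The Ephb4 window is chr5:137349859-137350158 on the + strand, that of Epha3 chr16:63864126-63864425 on the - strand, and that of Epha4 chr1:77515039-77515338 on the - strand. Capitals mark GC boxes, the motif GGGCGG on either strand.
Ephb4: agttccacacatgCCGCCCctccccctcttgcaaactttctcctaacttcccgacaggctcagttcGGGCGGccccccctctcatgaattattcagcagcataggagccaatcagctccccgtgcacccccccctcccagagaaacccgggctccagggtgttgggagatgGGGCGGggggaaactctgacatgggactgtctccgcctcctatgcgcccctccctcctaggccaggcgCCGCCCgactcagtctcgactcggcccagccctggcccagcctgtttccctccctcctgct
Epha3: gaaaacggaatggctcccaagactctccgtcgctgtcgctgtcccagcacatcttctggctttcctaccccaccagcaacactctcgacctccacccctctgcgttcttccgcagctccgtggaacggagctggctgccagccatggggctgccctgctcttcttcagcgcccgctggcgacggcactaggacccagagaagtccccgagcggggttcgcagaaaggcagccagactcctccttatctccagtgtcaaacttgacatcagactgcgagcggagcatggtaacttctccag
Epha4: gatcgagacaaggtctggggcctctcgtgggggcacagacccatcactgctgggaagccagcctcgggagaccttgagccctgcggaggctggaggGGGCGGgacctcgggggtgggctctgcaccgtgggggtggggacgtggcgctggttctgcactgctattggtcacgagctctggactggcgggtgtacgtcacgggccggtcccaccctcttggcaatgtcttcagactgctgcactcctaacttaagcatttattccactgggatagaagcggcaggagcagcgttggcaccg

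The Ephb4 window held 4 GC boxes, that of Epha4 held 1 and that of Epha3 held 0. All 10 genes had such a window, and in 8 of them at least 1 GC box was found, against 35.7% of 32841 RefSeq promoters of the same length. The CCAAT box, searched as CCAAT on both strands, was found in 5 of the 10 genes and in 37.4% of all promoters. The TATA box, searched as TATAAA on both strands, was found in 0 of the 10 and in 13.6% of all. The short core of ETS factor sites, GGAA on either strand, was found in all 10 and in 96% of all. GC content ran from 54.7% for Epha2 to 67% for Epha7, and the median over all promoters was 52.7%. These matches describe letters in a window and show no binding.

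Values are log2 intensities, so 1 unit is a 2-fold difference, and levels of different probe sets cannot be set against each other. Array medians lay between 5.89 and 6.01. Cardiomyocyte markers were bright in every heart, with a mean of 13.6 to 13.8 over the 12 genes tested. Between eM and eI hearts 11.7% of the 27022 tested probe sets had a limma adjusted p under 0.05, and between genotypes 0% had. The difference between 3-prime and 5-prime control probes of beta-actin, a sign of RNA integrity, was 0.28 to 0.41 in eI and 0.51 to 0.77 in eM hearts. Xist, the RNA of the inactive X chromosome, was bright in all wild-type hearts (11.51 to 12.33) and in mutant 2 (11.75). Mutants 1 and 3 had low readings of 6.73 and 6.78. Eif2s3y ran the opposite way, at 9.56 and 9.58 in mutants 1 and 3 and 3.49 to 3.79 in the other hearts. Hearts of high and low Xist were thus not evenly split between the genotypes.

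Of the 25 probe sets, 15 were bright enough to be tested, that is above the dimmest 40% of the array (a mean of 5.38), and they covered 9 of the 10 genes. The 10 left out were all 4 of Epha5, 3 of 4 for Epha3, 2 of 5 for Epha4 and 1 of 3 for Epha1. Epha5, a receptor of the developing brain, read between 3.75 and 4.82 over its 4 probe sets and 6 hearts. How far such readings lay above background is not known from the values used here.

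Ephb4 read 7.83, 8.20 and 8.06 in wild-type hearts 1 to 3 and 8.14, 7.93 and 8.06 in mutant hearts 1 to 3. Both the lowest and the highest reading came from wild-type hearts, so the mutant hearts lay inside the wild-type range. The means were 8.03 ± 0.18 (SD, n = 3) and 8.04 ± 0.11 (SD, n = 3). Mutant minus wild-type was 0.01, with a 95% confidence interval of -0.29 to 0.32 (limma), which leaves room for a difference of about that size in either direction (two-sided exact permutation p = 0.9). The smallest p that 3 against 3 hearts allows is 0.1. Only 1 probe set of the array names Ephb4, so no second reading of the transcript was at hand, and the position of the mutation relative to it is not given. In whole hearts, fewer cells of a type and less RNA per cell cannot be told apart.

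Ephb4 was not called between the letters either. The eM minus eI difference, adjusted for genotype, was 0.04 with an interval of -0.28 to 0.36 (limma adjusted p = 0.883). It was 0.04 within wild-type and 0.03 within mutant hearts. Over the 6 hearts Ephb4 spanned 0.36. The venous endothelial list held called genes on both sides: Aplnr, the apelin receptor, fell by 1.33 and Emcn, a sialomucin of venous and capillary endothelium, fell by 1.18 in eM hearts, while Nrp2, a semaphorin and VEGF co-receptor, rose by 0.71. These were 3 of the 5 venous genes tested, where 9.99% of the brightest probe sets of all genes were called. Among 10 pan-endothelial genes, Esam and Egfl7 fell by 0.71 and 0.73 and none rose past the threshold. Pecam1 (0.41), Kdr (0.28) and Eng (0.20) had positive differences that were not called, and all others of the list had negative ones. The mean of the pan-endothelial list was 9.07 to 9.17 in eI hearts and 8.91 to 8.95 in eM hearts, and that of the venous list 9.28 to 9.38 and 8.89. Whether Ephb4 differs from these genes in its response was not tested.

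By a root mean square difference of mean-centred profiles over the 6 hearts, the genes most like Ephb4 were Rad1 (0.035), Zfpm1 (0.037), Habp4 (0.039), Tle1 (0.039) and Znhit1 (0.039). They were the nearest of 8449 tested genes that varied at least as much as Ephb4. Rad1 read 7.95, 8.32 and 8.17 in wild-type hearts 1 to 3 and 8.31, 8.07 and 8.27 in mutant hearts 1 to 3. Like Ephb4, each of the 5 was lowest in wild-type 1, and Zfpm1, Habp4, Tle1, Znhit1 and Rad1 were all highest in wild-type 2. Such likeness over 6 arrays is a description only.

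The other B-class receptors followed here gave no call between genotypes. Ephb1, a receptor of axon guidance that endothelium can also carry, read 6.30, 5.28 and 6.09 in wild-type and 6.12, 6.07 and 6.42 in mutant hearts 1 to 3. The low reading of wild-type 2 stood apart from the other hearts, and the groups overlapped. The mutant minus wild-type difference of 0.31 (95% confidence interval -0.34 to 0.96) was the largest positive one among the tested receptor probe sets. Without wild-type 2 it was 0.0081, and without wild-type 1 it was 0.52. Ephb3, a receptor of venous endothelium, palate and gut crypts, read 10.03, 9.75 and 10.10 in wild-type and 9.80, 9.82 and 10.35 in mutant hearts, a difference of 0.03 (interval -0.41 to 0.47).

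The tested A-class receptors were likewise without a call between genotypes. Epha2, an epithelial receptor, lay between 7.86 and 8.23 over the hearts, with a mutant minus wild-type difference of -0.13 (interval -0.43 to 0.18). Epha1, also epithelial, differed by -0.03 and 0.04 at its 2 tested probe sets, and Epha10, a family member whose kinase domain is held to be inactive, by -0.01. The differences of Epha7 ran from -0.13 to 0.18 over 4 probe sets, and those of Epha4 from -0.06 to 0.18 over 3. The widest interval was that of Epha3, -1.92 to 0.88 around a difference of -0.52, which became 0.17 without mutant 3.

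In all, 0 of 15 tested receptor probe sets passed between genotypes in limma, as did 0% of all tested probe sets. Before adjustment, 0 of the 15 and 316 of the 27022 had a limma p under 0.05, and the smallest unadjusted p of a receptor was 0.288. This fit had no term for the letters, so differences between eM and eI hearts counted as spread within each genotype. That can widen its intervals and raise its p-values, so a lack of small p is weak evidence on genotype. Differences were positive at 9 and negative at 6 probe sets, with a median of 0.03 against 0.01 over all tested probe sets. Mutant and wild-type hearts overlapped at every one of the 15, where 4.67% of all tested probe sets had no overlap. With the letters or the replicate number as a block, or within the eI hearts alone, again 0 of the 15 passed.

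**Figure D1:**
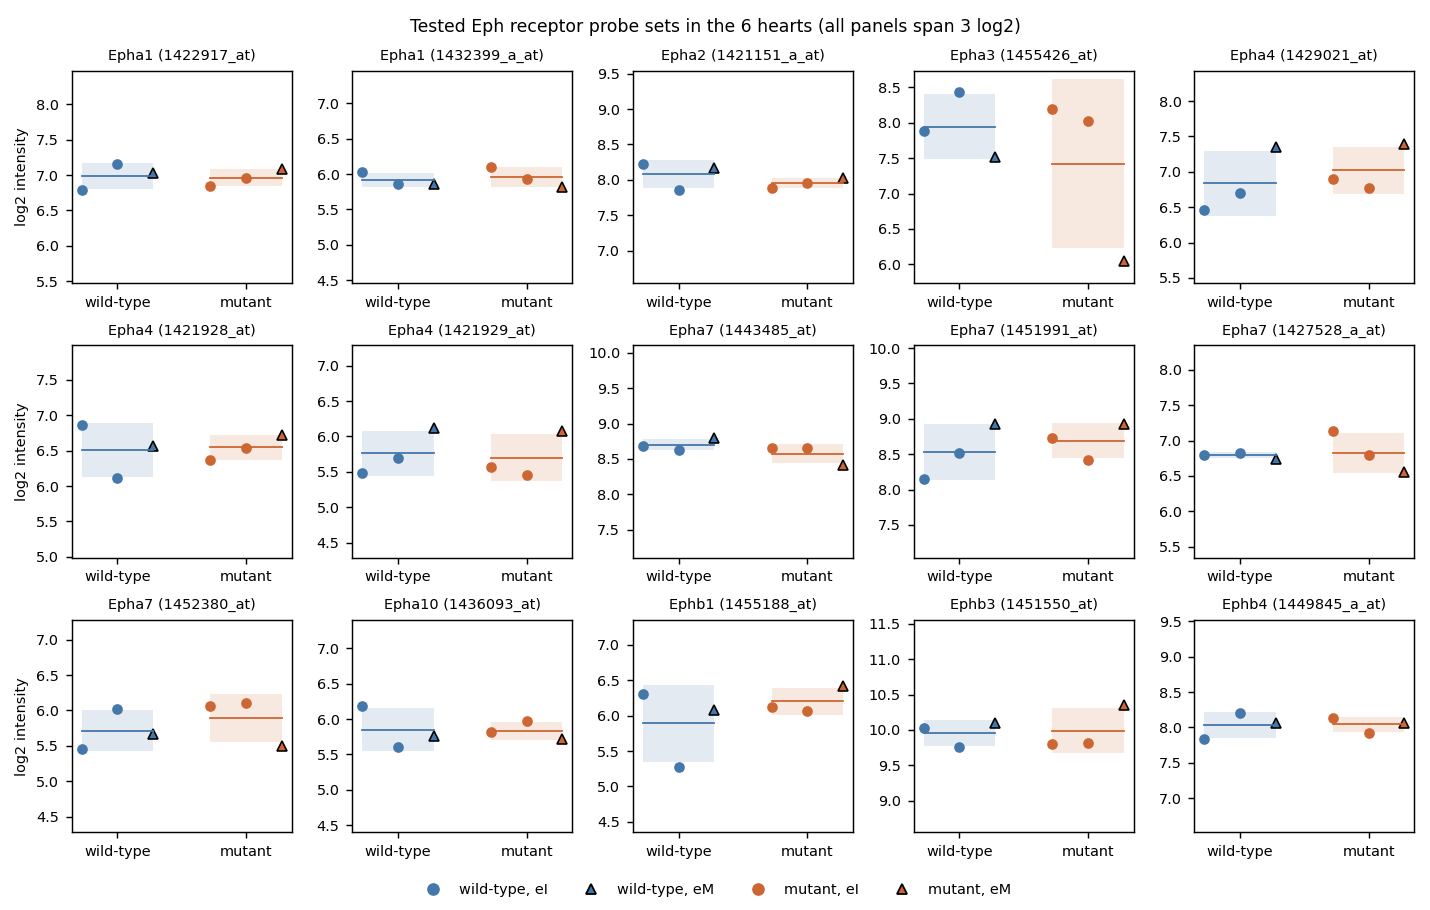
Log2 intensity (vertical axis, every panel spanning 3 units) of the 15 tested Eph receptor probe sets in each heart, wild-type on the left and mutant on the right of each panel, with lines at the group mean and bands of ± 1 SD (n = 3). Circles are eI and triangles eM hearts: Ephb4 stays within 7.83 to 8.20, while Epha3 drops to 6.04 in mutant 3 and the triangles of 2 Epha4 probe sets lie above their circles.

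Between eM and eI hearts, 3 of the 15 probe sets passed, from 2 genes: Epha3 was lower and Epha4 higher in eM hearts. The share over all tested probe sets was 11.7%, of which 6.75% were higher and 4.94% lower in eM. Of the receptors 2 of 15 probe sets were called higher and 1 lower. At 7 of the 15 the eM and eI readings did not overlap. How often that held over all tested probe sets is not given here, so a lack of overlap is description only. The comparison sets 2 eM hearts, 1 per genotype, against 4 eI hearts, and nothing in the labels says that the letters were a planned contrast. Leaving out mutant 3 took the calls over all probe sets from 3160 to 1, that of Pclaf, and those of the receptors to 0. A fit without mutant 3 or wild-type 3 has a single eM heart, which is assumed to vary like the others, so the spread there comes from the eI hearts only.

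Epha3, the receptor known from endocardial cushions, read 7.89, 8.43, 8.20 and 8.03 in the eI hearts (wild-type 1 and 2, mutant 1 and 2), against 7.52 in wild-type 3 and 6.04 in mutant 3. Both eM hearts lay below every eI heart, and mutant 3 lay far below wild-type 3. The eM minus eI difference was -1.36 ± 0.33 (SE), or 2.56-fold lower, with limma adjusted p = 0.0476. By exact permutation of the letters within genotype p was 0.111, the smallest that this design allows. The difference was -0.65 within wild-type and -2.07 within mutant hearts. Without mutant 3 it was -0.65 and without wild-type 3 it was -2.07, each with 1 eM heart left. With both eM hearts kept, the limma adjusted p was above 0.05 without wild-type 2, mutant 1 or mutant 2 (0.0729 to 0.135). It was also above 0.05 with no filter on dim probe sets (0.0583).

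The other 3 probe sets of Epha3 were dim and not tested. The first, 1425575_at, read 4.61 to 5.40 in eI hearts, 4.76 in wild-type 3 and 3.73 in mutant 3. The second, 1425574_at, read 4.59 to 5.12, 4.59 and 4.09 in the same order. Both were lowest in mutant 3, as the bright probe set was, and both put wild-type 3 at or near the low end of the eI hearts. The third, 1426057_a_at, stayed between 3.23 and 3.59.

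For Epha3 the genotype difference was -0.05 within eI and -1.47 within eM hearts. The interaction of genotype and letters was -1.43 (limma unadjusted p = 0.0133, adjusted p = 0.909). It was the only one of the 15 receptor probe sets with an unadjusted interaction p under 0.05, against 5.32% of all tested probe sets, and 0% passed after adjustment. The spread in that fit comes from the eI hearts alone, since eM has 1 heart per genotype.

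Markers of cushion and valve mesenchyme, the tissue in which Epha3 is known, did not follow 1 direction. Of 9 genes tested, Sox9, Msx1 and Vcan were called higher in eM hearts, by 0.72, 0.53 and 0.83, and 0 were called lower. Of the brightest probe sets of all genes, 9.99% were called between the letters. Postn, a matrix gene of valves and fibroblasts, had a difference of -1.47 that was not called (limma adjusted p = 0.0526). Prrx1 (-0.81), Snai2 (-0.73), Twist1 (-0.14) and Snai1 (-0.11) were also negative and not called. Tbx20 (0.34) was positive and not called. The list mean was 8.82 to 9.12 in eI hearts, 9.10 in wild-type 3 and 8.65 in mutant 3, which was thus lowest for the list and for Epha3. Of 6 liver and endoderm genes Afp was called lower, by 5.83, and of 4 blood cell genes Alas2 and Csf1r were called lower. The part of these cell types in the Epha3 result was not tested.

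Epha4, a receptor of axon guidance and of tissue boundaries, was higher in eM hearts at 2 of its 3 tested probe sets. The first, 1429021_at, read 6.46, 6.70, 6.89 and 6.77 in wild-type 1 and 2 and mutant 1 and 2, against 7.35 in wild-type 3 and 7.40 in mutant 3. Both eM hearts lay above all eI hearts. The difference was 0.67 ± 0.11 (SE), 1.59-fold, with limma adjusted p = 0.0185. A second, 1421929_at, read 5.48, 5.69, 5.56 and 5.46 in the same eI hearts and 6.11 and 6.07 in the eM hearts. Here too there was no overlap, with a difference of 0.54 ± 0.10 (SE), 1.46-fold (limma adjusted p = 0.0239). By exact permutation of the letters within genotype, both had p = 0.111, the smallest that this design allows.

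The third tested Epha4 probe set, 1421928_at, did not share the pattern. It read 6.87, 6.11, 6.37 and 6.54 in the eI hearts and 6.56 and 6.72 in the eM hearts, which lay inside the eI range. Its difference was 0.17 (interval -0.34 to 0.68), and that of 1421929_at, 0.54, lay inside this interval. Leaving out single hearts kept the differences of the 2 called probe sets between 0.57 and 0.77 and between 0.50 and 0.59. The calls of both were lost without wild-type 3, mutant 2 or mutant 3 (limma adjusted p = 0.081 to 0.224), and that of 1421929_at also without mutant 1 (0.0768). With Xist as a covariate 0 of the 15 receptor probe sets, Epha3 and Epha4 included, passed between the letters (smallest limma adjusted p = 0.0662).

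Epha4 is strongly expressed in neural tissue, so markers of neurons, glia and neural crest were set beside it. Of the 10 listed, 7 were named on the array and 6 tested, with 0 called, where 9.99% of the brightest probe sets of all genes were. The mean of the 6 was 5.99 to 6.29 in eI hearts, 6.69 in wild-type 3 and 6.55 in mutant 3, but the genes did not move together. Of the 6, 3 had positive eM minus eI differences: Tubb3, a neuronal tubulin (1.55), Elavl4, an RNA-binding protein of neurons (0.59), and the homeobox factor Isl1 (1.18). The other 3, Sox10 (-0.20), Stmn2 (-0.14) and Prph (-0.12), had negative ones. Isl1 was high in wild-type 3 alone (7.61, against 5.40 in mutant 3), and Tubb3 read 8.70 in mutant 3 but 7.49 in wild-type 3, below the 7.77 of wild-type 2, an eI heart. Elavl4 alone was higher in both eM hearts than in every eI heart, as Epha4 was. The beta-actin 3-prime to 5-prime difference was higher in eM hearts too, as given above. The part of these values in the Epha4 result was not tested.

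Epha7, a receptor of brain and neural crest patterning, gave different signs by probe set. At 1451991_at it read 8.15, 8.51, 8.73 and 8.42 in the eI hearts and 8.93 and 8.92 in the eM hearts. The eM hearts were the highest there, with a difference of 0.47 ± 0.15 (SE) that was not called (limma adjusted p = 0.0988). At 1443485_at the 4 eI hearts lay within 8.63 to 8.68, wild-type 3 above them at 8.79 and mutant 3 below them at 8.42, so the difference was -0.05. The probe sets 1427528_a_at and 1452380_at gave -0.23 and -0.33, neither called.

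**Figure D2:**
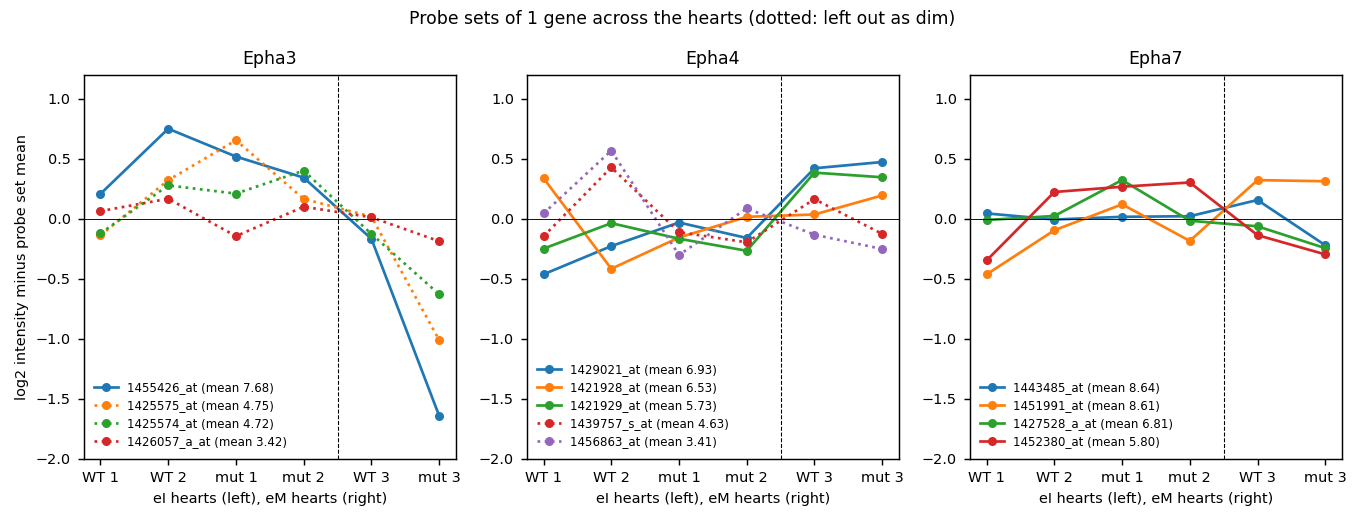
Log2 intensity of each probe set of Epha3, Epha4 and Epha7 minus its own mean over the hearts (vertical axis), with eI hearts left and eM hearts right of the dashed line; solid lines are tested and dotted lines dim probe sets. Epha3 falls in mutant 3 at 3 probe sets, 2 Epha4 probe sets are raised in both eM hearts, and the 4 of Epha7 part in direction.

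Among the B-class receptors followed here, Ephb3 came closest to a call by letters. Its eM readings, 10.10 and 10.35, lay above the eI range of 9.75 to 10.03. The difference was 0.37 ± 0.13 (SE; limma adjusted p = 0.109), with 0.21 within wild-type and 0.54 within mutant hearts. Without wild-type 1 it was 0.46, with limma adjusted p = 0.0296, and across the other hearts left out the adjusted p was 0.131 to 0.594. Ephb1 had a difference of 0.31 (interval -0.33 to 0.95).

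The remaining tested receptors were not called between the letters. Epha2 differed by 0.11 (interval -0.19 to 0.41), Epha1 by 0.11 and -0.14 at its 2 tested probe sets, and Epha10 by -0.16. Over the 15 tested probe sets 9 differences were positive and 6 negative, with a median of 0.11 against -0.01 over all tested probe sets. The median size was 0.23 against 0.18.

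**Figure D3:**
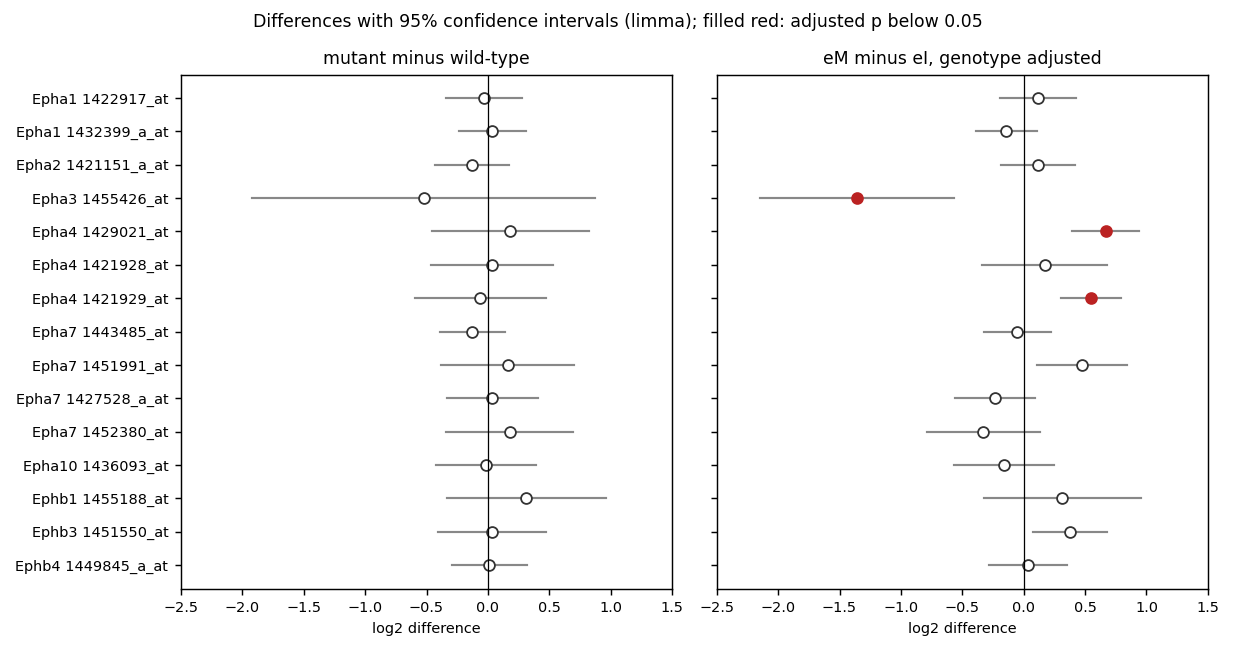
Log2 differences (points) with 95% confidence intervals from limma (bars) for the 15 tested Eph receptor probe sets, mutant minus wild-type on the left and eM minus eI on the right. No interval on the left leaves out 0; on the right the filled points, Epha3 at -1.36 and Epha4 at 0.67 and 0.54, passed an adjusted p of 0.05.

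The ligands and signalling partners of the receptors came from lists that hold 8 ephrins and 31 adaptors, exchange factors and regulators, each gene read at its brightest probe set. Between genotypes 0 of 8 ephrins and 0 of 30 tested partners were called. Smallest in p among the ephrins were Efna5 (-0.12 ± 0.12, SE), Efnb2 (0.19 ± 0.21) and Efnb1 (0.03 ± 0.09). Among the partners these were the phosphatase Ptpn11 (-0.12 ± 0.09), the scaffold Itsn1 (-0.13 ± 0.11) and the adaptor Nck2 (-0.13 ± 0.14). Ptpn11 read 11.44 to 11.50 in wild-type and 11.31 to 11.41 in mutant hearts, with no overlap, as was seen at 4.67% of all tested probe sets. The medians were 0.02 for ephrins and 0.03 for partners, against 0.01 over all tested probe sets.

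Between eM and eI hearts 1 of 8 ephrins and 6 of 30 partners were called, where 9.99% of the brightest probe sets of all genes were. Efnb3, the transmembrane ephrin-B3 that binds Epha4 as well as B-class receptors, read 10.37 to 10.46 in the eI hearts and 10.86 and 10.96 in the eM hearts. It was thus higher in both eM hearts, by 0.51 ± 0.09 (SE; limma adjusted p = 0.0189), the same direction as Epha4. Efna4, a lipid-anchored ephrin, lay lower in both eM hearts but was not called (-0.37 ± 0.09; adjusted p = 0.0518). Efna5, a ligand of Epha3 among others, had a difference of 0.23 ± 0.09 (adjusted p = 0.148). The ephrin median was -0.11.

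Of the partners, 4 were higher and 2 lower in eM hearts. Grip1 (0.80 ± 0.13, SE) and Afdn (0.65 ± 0.10) are PDZ proteins that bind the tails of Eph receptors or B-class ephrins, and both were higher. Sdcbp, or syntenin, another PDZ protein that binds B-class ephrins, was lower (-0.60 ± 0.09), reading 12.32 to 12.46 in eI hearts and 11.85 and 11.75 in eM hearts. The other called genes were the ubiquitin ligase Cbl (0.63), the exchange factor Vav3 (0.42) and the adaptor Nck1 (-0.66), named after their values were seen. The partner median was 0.09.

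**Figure D4:**
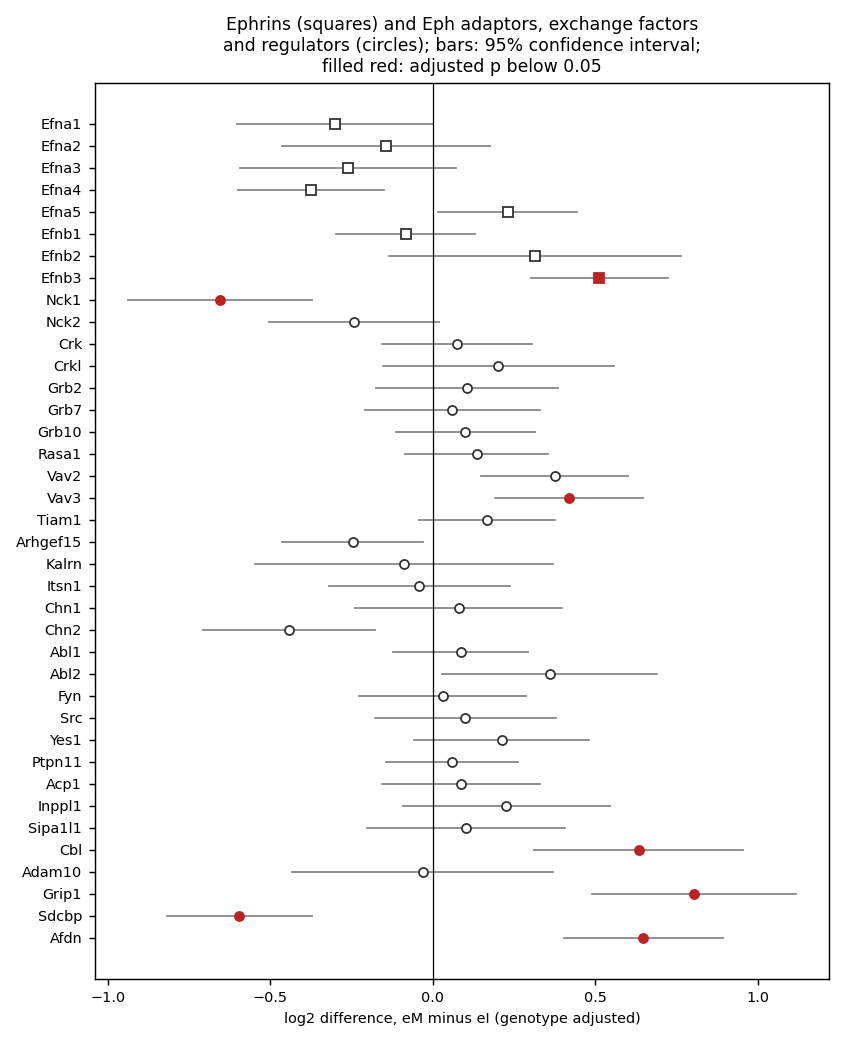
Log2 difference between eM and eI hearts, adjusted for genotype (horizontal axis), with 95% confidence intervals, for 8 ephrins (squares) and 30 Eph adaptors, exchange factors and regulators (circles). Filled symbols passed an adjusted p of 0.05: Efnb3, Vav3, Cbl, Grip1 and Afdn on the higher side, Nck1 and Sdcbp on the lower side.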

How the data were processed

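The authors deposited log2 intensities of 6 arrays, processed with RMA per the submitters' processing notes. The version and settings of RMA are not stated in the labels. Genotype and replicate number were read from each title, and eI or eM from each description. Each array was taken as 1 mouse, as the design text counts 6 mice; the number of arrays limits the precision. Of 45101 probe sets, 64 controls and the dimmest 40% by mean were left out, which left 27022. Genes were named from the platform annotation: 34945 probe sets named 1 gene, 932 several (not used) and 9160 none here; 34754 IDs matched RefSeq (GRCm38.p6), which changed 0 symbols.

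limma 3.58.1 in R 4.3.3 (lmFit, eBayes, two-sided, Benjamini-Hochberg over all tested probe sets, threshold 0.05) was fitted to genotype, to letters with genotype as a covariate, and to their interaction. The fits were also run on simulated arrays with known differences and independent spread. The pass mark there was the mean error of the recovered differences, so that run does not vouch for the calls here. Single probe sets also had exact permutation tests. Figures used matplotlib 3.10.9 in Python 3.11.15. Alternatives were other filters, normalization, centring, variance model, 1 probe set per gene, blocks, Xist as a covariate, and leaving out each heart.

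The receptors, gene lists and tests were chosen with earlier results of these data known. Named genes were all 10 receptors, the 3 of smallest p per ephrin or partner list and comparison, the 5 nearest to Ephb4, and list markers. Of the 11 marker lists, those for endocardial, arterial, epicardial and epithelial genes are summed up here: 1 of 6, 2 of 9, 3 of 8 and 2 of 7 tested genes were called higher in eM hearts, and Msln, of the epicardial list, lower. Of the 12 tested cardiomyocyte genes 2 were called higher. Over all genes, 9.99% of the brightest probe sets were called between the letters. In the genotype comparison 0 genes of any list were called, as were 0% of all tested probe sets.

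Deviations from the group means of same-numbered hearts correlated at 0.18, 0.36 and 0.74 over tested probe sets, all above the 0.1 set for treating the numbers as pairs. Pair 3 is also the eM pair, and within eI the hearts of different number correlated more (wild-type 1 with mutant 2 at 0.49, wild-type 2 with mutant 1 at 0.47). The main genotype fit did not use the pairs, and a fit with the replicate number as a block was run beside it.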

Additional observations from a re-analysis of the deposited data

How the results depend on the processing

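Between genotypes 0 of the 15 tested receptor probe sets were called under every alternative run, the replicate block included (0 of 27022 called, 943 at an unadjusted p under 0.05), and this block changed no call. Signs of these small differences were less stable: 198 recomputed values kept their sign and 30 did not. They turned after quantile normalization for Epha4 1421928_at (-0.0054) and Ephb4 (-0.0080), within eI hearts alone for Epha4 1421928_at (-0.031) and Ephb3 (-0.080), and with Xist as a covariate for Epha3 (0.0023), Epha4 1429021_at (-0.0049), Epha7 1451991_at (-0.061), Epha7 1427528_a_at (-0.011), Epha10 (0.12), Ephb3 (-0.12) and Ephb4 (-0.11). Leaving out single hearts gave ranges across 0 for Epha1 1422917_at (-0.13 to 0.054) and 1432399_a_at (-0.038 to 0.10), Epha3 (-0.91 to 0.17), Epha4 1429021_at (-0.0057 to 0.44), 1421928_at (-0.17 to 0.21) and 1421929_at (-0.25 to 0.11), Epha7 1451991_at (-0.030 to 0.36) and 1427528_a_at (-0.11 to 0.17), Epha10 (-0.14 to 0.15), Ephb3 (-0.15 to 0.12) and Ephb4 (-0.086 to 0.096). Over all probe sets it gave 0 to 2 calls, Rps9 without wild-type 3 and Eif2s3y and Xist without mutant 2.

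Between eM and eI hearts, leaving out single hearts gave 1 (without mutant 3) to 4333 (without wild-type 1) called probe sets, with 1263 without wild-type 3, 1208 without mutant 1 and 815 without mutant 2. Receptor calls ran from 0 (without mutant 2 or mutant 3) to 5 (without wild-type 1, which added Ephb3 and Epha7 1452380_at). With 1 probe set per gene there were 1397 calls, 1 of them a receptor (Epha4), and with Xist as a covariate beside genotype 1114, 0 of them a receptor. The other filters, normalizations, variance model and the fit with no genotype term gave 2 or 3 receptor calls. Ephb4 turned sign after quantile normalization (-0.0016) and ranged from -0.042 to 0.11 without single hearts, and Epha7 1443485_at from -0.24 to 0.14.

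The interaction gave 0 calls throughout and could not be fitted without wild-type 3 or mutant 3. Its sign turned after quantile normalization for Epha2 (0.010) and Ephb4 (0.028). Without single eI hearts it ranged from -0.049 to 0.32 for Epha1 1422917_at, -0.21 to 0.17 for Epha2, -0.19 to 0.57 for Epha4 1421928_at, -0.071 to 0.14 for Epha4 1421929_at, -0.33 to 0.26 for Epha10, -0.48 to 0.55 for Ephb1 and -0.19 to 0.17 for Ephb4. The cause of these changes was not tested. Signal over background is not known for these values, which limits what the dim probe sets can show.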
